A study of Mus musculus with 4 samples.

Results

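The integrin and cadherin genes are described here in primary mouse osteoblast cultures labelled as floxed for Runx3 with Cre, or as WT. Members were all genes on the array with a row of a single symbol for an integrin alpha chain, an integrin beta chain or a numbered cadherin, with Cdh5 set aside, and the row of highest mean level stood for each gene. That gave 47 genes, 25 integrins and 22 cadherins, among 22180 genes with such a row. Itga10 had no row of its own symbol and was not analysed here.

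Integrins are cell surface receptors made of an alpha and a beta chain, which together set the ligand. Chains such as alpha 1, 2 and 11 take part in collagen receptors, alpha 3, 6 and 7 in laminin receptors, and alpha 5, 8 and v in receptors for fibronectin, vitronectin and bone sialoprotein, while beta 2 with alpha L, M, X or D is made by leukocytes. Classical cadherins join neighbouring cells of like kind through calcium-dependent contacts, and N-cadherin and cadherin 11 are the ones known best in osteoblasts.

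Cultures of the mutant label carried floxed Runx3 alleles and a Cre transgene under Col1a1 (Runx3f/f/Col1a1-cre in the labels), and the others were labelled WT. Both came from calvaria of newborn mice and were kept for 21 days in osteogenic medium with ascorbate and glycerol phosphate, and each group had 2 arrays numbered as biological replicates 1 and 2. The labels leave out strain, sex, litter, which exons were floxed and whether WT mice carried Cre. Col1a1 drives Cre in osteoblasts and other type I collagen producers, which leukocytes are not. The tissue tag of every array reads myoblast while cell type and title name osteoblasts.

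All 10 osteoblast markers examined passed a detection floor of 4.71 on at least 2 arrays, where 90% of rows for odorant and pheromone receptors have a lower mean. Of these markers 4 were at least 1.5-fold lower on the mutant-labelled arrays in both replicates, against 1.15% of all genes past the floor. Of 7 skeletal muscle markers 6 passed the floor, and 1 was higher and 1 lower in both replicates, neither by 1.5-fold. Des, the muscle filament desmin, read 8.11 and 8.24 on the mutant-labelled arrays, against 7.59 and 7.99 in WT, without overlap, and Actc1 differed by -0.06. Pax7 was 0.30 higher in replicate 1 and equal in replicate 2, Myf5 was equal in replicate 1 and at -0.19 in replicate 2, Myod1 and Myog held equal values in both, and Myh3 lay below the floor. Runx3 read 7.94 and 8.06 on the mutant-labelled arrays, against 7.45 and 7.87 in WT, so its row does not show a loss of Runx3 RNA. For that reason the cultures with floxed alleles are named mutant-labelled, after their label. Levels are log2 values as deposited. Probe sets differ in brightness, so a higher level of a gene than of another is not read as more RNA. Levels of several genes were used together for the floor, for choosing bright members to describe and for summed levels of marker lists. Replicate 2 read higher than replicate 1 in both groups (median of tested genes 7.81 against 7.53), which is why differences are given within each replicate number, mutant-labelled minus WT.

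Of the 47 members, 45 passed the floor on at least 2 arrays and were tested, and Cdh9 and Cdh12 did not. Differences ran from -1.50 to 1.59 with a median of 0.00, where the median of all 17841 tested genes was also 0.00. Within both replicates 10 of the 45 members were lower (22.2%), 11 were higher (24.4%) and 0 went in opposite directions. Over all genes the corresponding shares were 19.5% lower, 16.8% higher and 3.39% opposite. Another 12 members held exactly equal values in mutant-labelled and WT arrays of both replicates (26.7% of members, 25.7% of all genes). Neither labels nor files say how such equal values arose, and they do not show that a gene was level.

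Members at least 1.5-fold lower within both replicates numbered 4 of 45 (Itgb2, Itgam, Itga6 and Cdh19), which is 8.89%, against 1.15% of all genes tested. Those at least 1.5-fold higher numbered 3 of 45 (Cdh1, Cdh6 and Cdh10), which is 6.67%, against 1.47% of all genes. In limma, 0 members and 0% of all genes passed an adjusted p of 0.05. On simulated arrays with the replicate offset of these data, the same fit recovered the size of planted changes but passed none of them at that threshold. The count of 0 therefore does not show that genes were level. When the replicate number was added as a block, most planted changes passed, but 0% of the real genes did. The simulation took offsets and spreads of these data in shuffled order and held no exactly equal values, so it differs from the real arrays. At an unadjusted limma p under 0.05 there were 8 of the 45 members (17.8%), against 3.96% of all genes. Of the 45, 4 were lower (1.9% of all genes) and 4 higher (2.06% of all genes). With the replicate number as a block, 13 of the 45 members stood there, against 13% of all genes. Quantile normalization was then added to the block, a setting chosen after the data were seen. There 5 of the 45 members passed an adjusted limma p of 0.05, against 1.88% of all genes. The arrays of the groups did not overlap in 9 of the 45 members on the lower side (20%) and 8 on the higher side (17.8%). Over all genes these shares were 9.25% and 7.66%. With 2 arrays a group, an exact permutation test of a single gene cannot go below p = 0.333. Nothing in the labels says that arrays came from separate mice, so these p-values measure the spread between arrays.

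**Figure D1:**
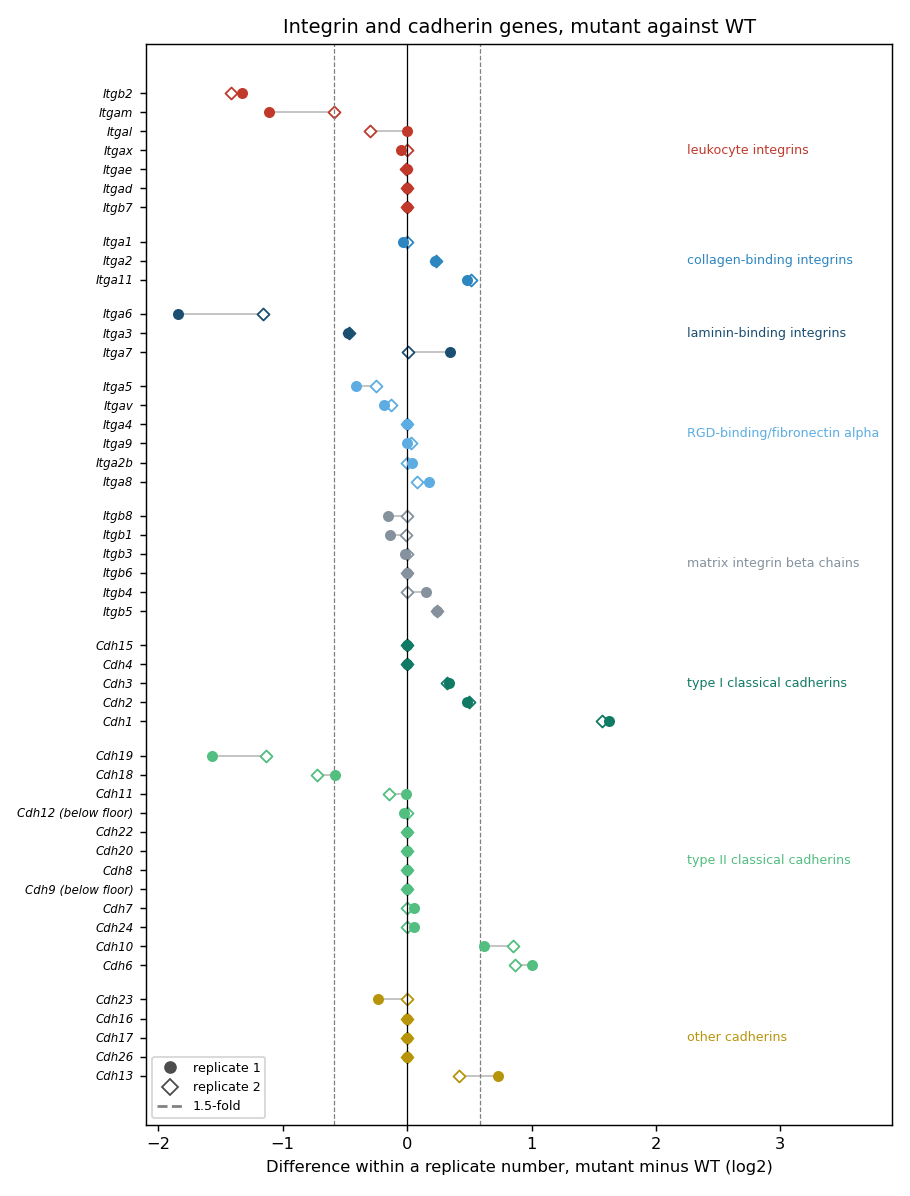
Differences of the 47 members within replicate 1 (filled circles) and replicate 2 (open diamonds), mutant-labelled minus WT on the log2 scale, grouped by ligand or cadherin type, with dashed lines at 1.5-fold. Most genes sit at or near 0, while Itgb2, Itgam, Itga6 and Cdh19 lie left of the dashed line and Cdh1, Cdh6 and Cdh10 right of it in both replicates.

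Among the leukocyte integrins, the shared beta 2 chain and alpha M were lower on the mutant-labelled arrays in both replicates, and of the other 5 genes none was. Itgb2, which encodes the beta chain common to the leukocyte receptors, read 6.03 and 6.35 on the mutant-labelled arrays, against 7.36 and 7.77 in WT. Every mutant-labelled array lay below every WT array. That is a 2.59-fold lower mean (log2 difference -1.37, SE 0.23, limma unadjusted p = 0.00552, adjusted p = 0.569), with -1.33 in replicate 1 and -1.42 in replicate 2.

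Itgam, which encodes the alpha M chain (CD11b) of macrophages and neutrophils, read 5.07 and 5.77 on the mutant-labelled arrays, against 6.18 and 6.36 in WT. The groups did not overlap, and the mutant-labelled array of replicate 1 came near the floor. Its log2 difference was -0.85 (SE 0.30, limma unadjusted p = 0.0518, adjusted p = 1). The replicates gave -1.11 and -0.59, the second just past the 1.5-fold line.

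Itgal, the alpha L chain of lymphocytes and other leukocytes, read 5.65 and 5.73 on the mutant-labelled arrays, against 5.65 and 6.03 in WT. Its replicate 1 values were exactly equal, so its mean difference of -0.15 came from replicate 2. Itgax, the alpha X chain (CD11c) of dendritic cells and macrophages, read 5.02 and 5.14 on the mutant-labelled arrays, against 5.07 and 5.14 in WT. Itgae, the alpha E chain that binds E-cadherin, read 4.56 and 5.13 on the mutant-labelled arrays, against 4.56 and 5.15 in WT. Both genes read close to the floor on every array. Itgad read 4.63 and 4.94, and Itgb7, the beta chain that pairs with alpha 4 and alpha E, read 5.76 and 6.18, each with the same values in both groups.

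Promoters of the leukocyte integrins present in the RefSeq table (GRCm38.p6) are shown. Itgam and Itgax are immediate neighbours on chromosome 7, followed by Itgad. Only Itgam of these passed 1.5-fold, which was known when the promoters were chosen. Itgax and Itgad read close to the floor, with little room to read lower, so the neighbours cannot be compared. Each promoter runs from 250 bases before the annotated start to 50 after it, 5′ to 3′ on the gene's strand. Capitals mark TGTGGT or TGCGGT, core letters bound by Runt domain factors, and GAGGAA, core letters bound by the myeloid factor PU.1, on either strand.
Itgam, chr7:128062390-128062689, plus strand: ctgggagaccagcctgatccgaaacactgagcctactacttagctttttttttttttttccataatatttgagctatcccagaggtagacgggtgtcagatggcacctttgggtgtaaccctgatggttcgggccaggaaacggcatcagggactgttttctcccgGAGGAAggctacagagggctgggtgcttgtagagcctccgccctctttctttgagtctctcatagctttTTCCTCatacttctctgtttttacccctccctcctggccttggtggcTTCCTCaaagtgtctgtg
Itgax, chr7:128129300-128129599, plus strand: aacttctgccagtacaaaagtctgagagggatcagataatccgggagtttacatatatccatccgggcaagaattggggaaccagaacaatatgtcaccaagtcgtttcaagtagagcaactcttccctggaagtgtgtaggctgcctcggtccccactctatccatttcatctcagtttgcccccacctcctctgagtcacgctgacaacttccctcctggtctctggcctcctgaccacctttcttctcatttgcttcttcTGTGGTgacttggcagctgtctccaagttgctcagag
Itgb7, chr15:102231886-102232185, minus strand: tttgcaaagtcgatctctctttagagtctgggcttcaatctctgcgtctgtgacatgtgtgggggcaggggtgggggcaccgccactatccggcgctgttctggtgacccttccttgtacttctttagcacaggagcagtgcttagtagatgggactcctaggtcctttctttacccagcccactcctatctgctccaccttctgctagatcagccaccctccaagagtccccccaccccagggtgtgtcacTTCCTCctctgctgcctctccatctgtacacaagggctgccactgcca

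The Itgam window held GAGGAA 3 times and neither Runt word. Itgax held TGTGGT once, beginning 14 bases into the transcript, and Itgb7 held GAGGAA once. Among the 32851 promoters listed by RefSeq, 28.3% held GAGGAA and 22.4% held TGTGGT or TGCGGT on either strand, where the words do not overlap each other. Among the 34 promoters listed for 30 of the members these words were in 44.1% and 23.5%. A match is a run of letters and no evidence of binding.

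Myeloid markers read lower on the same arrays as Itgb2 and Itgam. Of 19 tested myeloid markers, 17 were lower in both replicates, 0 were higher, and 14 were at least 1.5-fold lower. Over all genes these shares were 19.5%, 16.8% and 1.15%. Their summed linear level was 3059 and 3471 on the mutant-labelled arrays, against 9461 and 10259 in WT. That sum is led by its brightest row, Lyz2 (10.05 and 10.00 against 11.78 and 11.81). Csf1r, the receptor for macrophage colony-stimulating factor, differed by -1.38, Adgre1, a surface receptor of macrophages, by -2.44 and Ptprc, the leukocyte antigen CD45, by -1.02. Spi1, which encodes PU.1, was at -0.37, with -0.69 in replicate 1 and -0.05 in replicate 2. Of the myeloid markers, Cx3cr1 and Aif1 held equal values in both replicates, and none lay below the floor on all arrays. Of 7 lymphocyte markers with a row, 5 passed the floor and 0 were lower in both replicates. Of these 5, 3 held equal values in both replicates. Their median level was 4.30 and 5.21 on the mutant-labelled arrays, against 4.25 and 5.26 in WT. So close to the floor, they had little room to read lower. Of 9 tested osteoclast markers 1 was 1.5-fold lower, and of 5 platelet markers Pf4 was, at -1.11, against 1.15% of all genes. In bulk RNA, fewer cells of a type and less RNA per cell cannot be told apart, and the part of myeloid cells in the integrin differences was not tested.

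Matrix-binding integrins as a whole showed no common direction. Of the 18 tested, 5 were lower and 5 higher within both replicates, against 19.5% and 16.8% of all genes. At least 1.5-fold lower was 1, and 0 were at least 1.5-fold higher, against 1.47% of all genes. Equal values stood in both replicates in 2 of the 18 and in 1 replicate in 6 more, which draws the median towards 0. The class median was 0.00, beside -0.02 for the 7 leukocyte integrins. Of those 7, 2 were at least 1.5-fold lower and 0 higher within both replicates. With a floor at 5.76, the median of all rows, 3 leukocyte integrins were left: Itgb2, Itgam and Itgb7. Their median of -0.85 is the value of Itgam itself, and that of the matrix class was 0.00. Itgam passed this floor on both WT arrays and narrowly on the mutant-labelled array of replicate 2 (5.77), but not on that of replicate 1. The filter asks for any 2 of the 4 arrays, so a gene high in either group alone can pass. With 3 leukocyte integrins left, the medians at this floor give no contrast between the classes. As shares, 28.6% of leukocyte and 5.56% of matrix-binding integrins passed 1.5-fold on the lower side, against 1.15% of all genes. The difference between the classes was not tested, since the genes of a class are not independent samples.

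The laminin-binding alpha chains held the largest difference of the matrix class. Itga6, whose chain pairs with beta 1 or beta 4 to bind laminin, read 5.98 and 5.87 on the mutant-labelled arrays, against 7.82 and 7.02 in WT. Both mutant-labelled arrays lay more than 1 log2 unit below the lower WT array. The mean was 2.83-fold lower (log2 difference -1.50, SE 0.32, limma unadjusted p = 0.0127, adjusted p = 0.788), at -1.84 in replicate 1 and -1.16 in replicate 2. Its unadjusted limma p was 0.0719 in the fit with the replicate block.

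Itga3, the alpha chain of another laminin receptor, read 8.35 on both mutant-labelled arrays, against 8.82 on both WT arrays. Replicates were nearly identical in each group, and the differences were -0.47 in both (limma unadjusted p = 0.0187, adjusted p = 0.876). Itga7, a laminin receptor chain known from muscle, read 6.75 and 6.93 on the mutant-labelled arrays, against 6.41 and 6.92 in WT. Those ranges overlap, and nearly all of its difference of 0.18 lay in replicate 1.

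Of the 3 collagen-binding chains, 2 were higher within both replicates, against 16.8% of all genes. In this list 0 passed 1.5-fold or an unadjusted p of 0.05. Itga11, a collagen receptor chain of mesenchymal cells, read 11.57 and 11.83 on the mutant-labelled arrays, against 11.09 and 11.32 in WT. The groups did not overlap, at 0.48 and 0.51 within the replicates (limma unadjusted p = 0.054, adjusted p = 1). Itga2 differed by 0.22 and 0.23, with overlapping arrays, and Itga1 by -0.03 and 0.00.

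Of the 6 alpha chains for fibronectin, vitronectin and similar ligands, 2 were lower and 1 higher within both replicates. Over all genes these shares were 19.5% and 16.8%, and 0 of the 6 passed 1.5-fold. Itga5, the fibronectin receptor chain, read 11.24 and 11.30 on the mutant-labelled arrays, against 11.66 and 11.55 in WT. Its arrays did not overlap, with -0.41 and -0.25 within the replicates. Itgav, which pairs with beta 1, 3, 5, 6 or 8, read 11.64 and 11.73 on the mutant-labelled arrays, against 11.82 and 11.86 in WT, again without overlap.

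Itga8, the nephronectin receptor chain, read 11.50 and 11.66 on the mutant-labelled arrays, against 11.33 and 11.59 in WT, which overlap. Itga9 differed by 0.00 and 0.03 and Itga2b, the platelet chain, by 0.04 and 0.00. Itga4, the chain that binds fibronectin and VCAM1, held equal values in both replicates.

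Of the 6 matrix beta chains, 1 was lower and 1 higher within both replicates, against 19.5% and 16.8% of all genes. Itgb1, the partner of most matrix-binding alpha chains, read 12.44 and 12.56 on the mutant-labelled arrays, against 12.57 and 12.56 in WT, a mean difference of -0.07 without overlap. Itgb5, a partner of alpha v, read 12.23 and 12.42 on the mutant-labelled arrays, against 11.99 and 12.18 in WT. Those differences were 0.24 in both replicates, and the groups did not overlap.

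The other beta chains were at -0.02 and 0.00 for Itgb3, 0.15 and 0.00 for Itgb4, and -0.16 and 0.00 for Itgb8, while Itgb6, an epithelial chain, was dim and held equal values. Itgb1 and Itgb4, whose products pair with the alpha 6 chain, thus differed by -0.07 and 0.08 where Itga6 differed by -1.50.

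**Figure D2:**
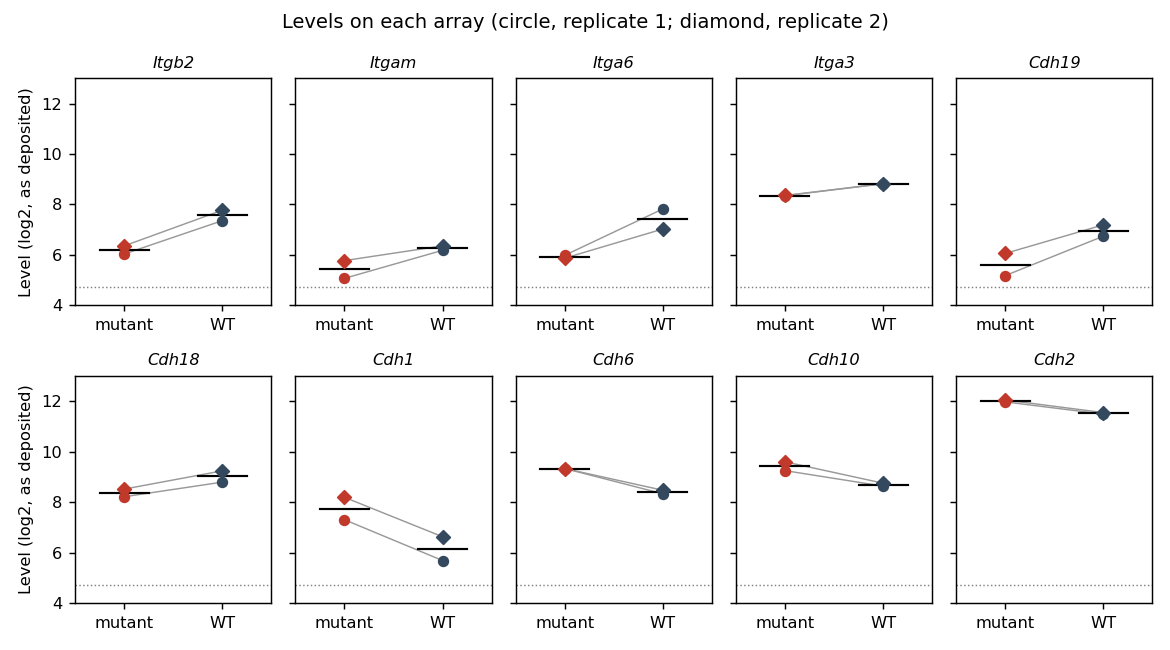
Levels of 10 members on each array, in log2 as deposited, for mutant-labelled (left, red) and WT (right, dark) cultures; circles are replicate 1, diamonds replicate 2, lines join arrays of 1 replicate number, bars are means of 2 arrays and the dotted line is the floor of 4.71. The 10 genes were picked for their large differences, so the lack of overlap between groups in all of them follows from that choice. Over all genes tested, arrays did not overlap in 9.25% on the lower side and 7.66% on the higher side. Itgam and Cdh19 of mutant-labelled replicate 1 (5.07 and 5.17) lie nearest to the floor.

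Cadherins differed in both directions. Of 20 tested, 6 were higher and 3 lower within both replicates, against 16.8% and 19.5% of all genes. At least 1.5-fold higher were 3 and at least 1.5-fold lower 1, against 1.47% and 1.15%, and 8 held equal values throughout, against 25.7%. Of the 5 type I cadherins, 3 were higher, 0 lower and 2 equal in both replicates.

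Cdh1 encodes E-cadherin, the adhesion molecule of epithelia. It read 7.30 and 8.19 on the mutant-labelled arrays, against 5.68 and 6.62 in WT. Both mutant-labelled arrays were above both WT arrays, although the offset between replicate numbers was large in each group. The mean was 3.02-fold higher (log2 difference 1.59, SE 0.50, limma unadjusted p = 0.0389, adjusted p = 1), and the replicates gave 1.62 and 1.57. A second row for Cdh1 lay below the floor at equal values (3.67 and 4.00 in both groups), so the difference rests on 1 row.

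Markers of epithelia gave little information beside Cdh1. Krt8 and Krt18, keratins of simple epithelia, held equal values in both replicates, which do not show that a gene was level. Krt14 differed by -0.08 in replicate 1 and was equal in replicate 2. Cldn4 differed by -0.22, and Epcam lay below the floor. Summed levels of the 4 tested epithelial markers were 197 and 326 on the mutant-labelled arrays, against 208 and 335 in WT. The endothelial markers Flt1 at 1.36, Emcn at 1.12 and Cdh5 at 1.49 were higher on the same arrays, while Kdr and Cldn5 held equal values and Pecam1 was at -0.07. The summed level of 7 endothelial markers was 770 and 755 on the mutant-labelled arrays, against 338 and 439 in WT. That linear sum is led by its brightest rows, Cdh5 (8.63 and 8.41 against 6.93 and 7.13) and Flt1 (7.65 and 7.44 against 6.20 and 6.18). Cdh5 is itself the cadherin set aside from the members. The part of endothelial cells in the cadherin differences was not tested.

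Cdh2, which encodes N-cadherin, read 11.98 and 12.05 on the mutant-labelled arrays, against 11.49 and 11.55 in WT. The spread within a group was under 0.08, and the replicates differed by 0.48 and 0.50 (SE 0.12, limma unadjusted p = 0.0187, adjusted p = 0.876). A second row for Cdh2 gave 0.51 and 0.40. Cdh3, which encodes P-cadherin and lies next to Cdh1 on chromosome 8, read 9.35 and 9.23 on the mutant-labelled arrays, against 9.01 and 8.91 in WT. Its arrays did not overlap either, with 0.33 and 0.32 within the replicates. Cdh4 and the muscle cadherin Cdh15 held equal values in both replicates.

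Type II cadherins included the members with opposite differences. Cdh6, a cadherin of kidney and neural crest, read 9.33 on both mutant-labelled arrays, against 8.33 and 8.47 in WT. That is a 1.91-fold higher mean (log2 difference 0.93, SE 0.13, limma unadjusted p = 0.00277, adjusted p = 0.465), the smallest p of any member, with 1.00 and 0.86 within the replicates. Cdh10, known from brain, read 9.25 and 9.60 on the mutant-labelled arrays, against 8.63 and 8.75 in WT. The groups did not overlap, at 0.62 and 0.85 (SE 0.18, limma unadjusted p = 0.019, adjusted p = 0.878).

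Cdh18, also known from brain, went the other way, at 8.21 and 8.52 on the mutant-labelled arrays, against 8.79 and 9.24 in WT. Its replicate 1 difference of -0.58 fell just short of 1.5-fold and replicate 2 gave -0.73. Cdh6, Cdh9, Cdh10 and Cdh12 follow one another on chromosome 15 with no other protein-coding gene between them, and 1 such gene separates Cdh12 from Cdh18. Within this run 2 genes were higher, 1 was lower, and Cdh9 and Cdh12 lay below the floor.

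Promoters of the 3 genes of this run that differed are shown for their contrast in direction, in the same form and from the same RefSeq table. They were chosen after the values were seen, and the capitals mark the same words.
Cdh6, chr15:13173626-13173925, minus strand: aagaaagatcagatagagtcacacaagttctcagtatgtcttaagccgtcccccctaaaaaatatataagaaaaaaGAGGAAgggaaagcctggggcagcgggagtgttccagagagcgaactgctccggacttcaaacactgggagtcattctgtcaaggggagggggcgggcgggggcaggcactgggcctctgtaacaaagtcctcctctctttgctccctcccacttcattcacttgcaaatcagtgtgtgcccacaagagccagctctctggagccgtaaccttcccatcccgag
Cdh10, chr15:18820079-18820378, plus strand: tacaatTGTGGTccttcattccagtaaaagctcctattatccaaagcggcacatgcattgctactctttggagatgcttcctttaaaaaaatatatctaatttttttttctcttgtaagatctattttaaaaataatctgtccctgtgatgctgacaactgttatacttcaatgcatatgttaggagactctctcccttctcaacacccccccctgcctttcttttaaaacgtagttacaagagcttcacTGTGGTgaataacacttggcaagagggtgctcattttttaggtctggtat
Cdh18, chr15:23036213-23036512, plus strand: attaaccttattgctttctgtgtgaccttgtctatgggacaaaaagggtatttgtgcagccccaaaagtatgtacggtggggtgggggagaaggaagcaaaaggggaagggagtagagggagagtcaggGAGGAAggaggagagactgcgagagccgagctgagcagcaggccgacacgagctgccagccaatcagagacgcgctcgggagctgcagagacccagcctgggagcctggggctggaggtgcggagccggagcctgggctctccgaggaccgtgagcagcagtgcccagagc

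Cdh10 held TGTGGT 2 times, the second beginning at the first transcribed base, and no GAGGAA. Cdh6 and Cdh18, which differed in opposite directions, each held GAGGAA once and neither Runt word.

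Cdh19, a type II cadherin known from Schwann cell precursors, was the cadherin with the lowest difference. It read 5.17 and 6.05 on the mutant-labelled arrays, against 6.74 and 7.19 in WT. Neither group reached the other, and the mean was 2.55-fold lower (log2 difference -1.35, SE 0.39, limma unadjusted p = 0.0305, adjusted p = 1), at -1.57 and -1.14. Its neighbour Cdh7 on chromosome 1 was near the floor, at 0.05 and 0.00, and Cdh20 held equal values.

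Of 5 markers fixed for Schwann cells and neural crest glia, 3 had a row. Sox10 differed by -0.16, S100b by -0.38 and Foxd3 by -0.07, and none was 1.5-fold lower in either replicate. Sox10 read 4.86 and 5.11 on the mutant-labelled arrays, against 5.13 and 5.16 in WT, with little room above the floor to read lower. Foxd3 held equal values in replicate 2. Their summed level was 593 and 818 on the mutant-labelled arrays, against 785 and 976 in WT. That linear sum is led by S100b (8.91 and 9.35 against 9.36 and 9.66). The part of such cells in the Cdh19 and Itga6 differences was not tested.

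Cdh11, osteoblast cadherin, read 13.14 and 13.25 on the mutant-labelled arrays, against 13.15 and 13.40 in WT. The groups overlapped, and the differences were -0.01 and -0.15. Cdh24 differed by 0.06 and 0.00, and Cdh8 and Cdh22 held equal values.

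Cdh13, the cadherin anchored to the membrane by a lipid, read 8.03 and 8.20 on the mutant-labelled arrays, against 7.30 and 7.79 in WT. Its groups did not overlap, and replicate 1 passed 1.5-fold at 0.73 while replicate 2 gave 0.41. Cdh23, known from hair cells of the inner ear, was at -0.23 and 0.00. Cdh16, Cdh17 and Cdh26 held equal values in both replicates.

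**Figure D3:**
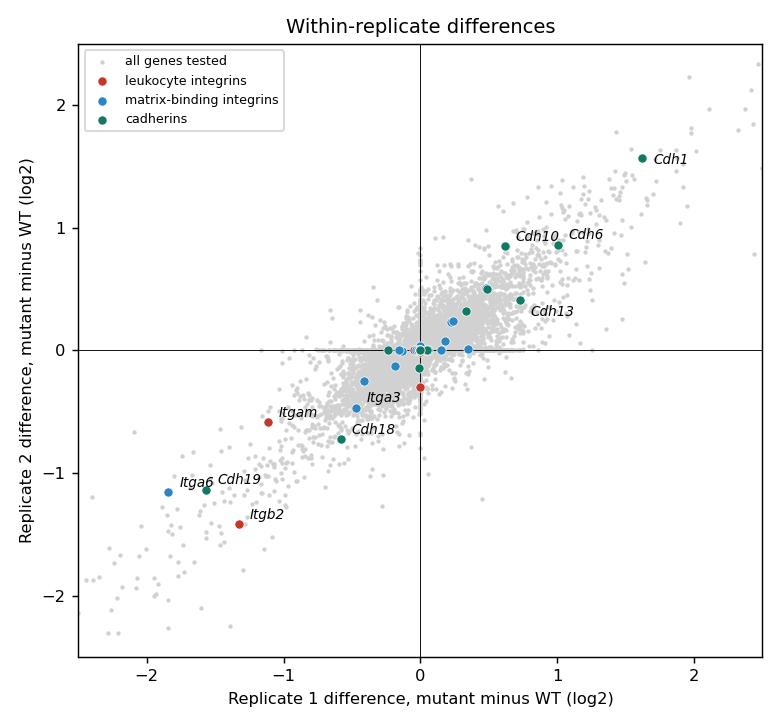
Difference in replicate 1 (horizontal) against replicate 2 (vertical), mutant-labelled minus WT in log2, for all tested genes (grey) and the 45 tested members by class (red, leukocyte integrins; blue, matrix-binding integrins; green, cadherins); 26 genes lie outside the limits of 2.5. Members spread along the diagonal in both directions, with 0 in the opposite quadrants.

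Across the 45 tested members the replicate 1 and replicate 2 differences correlated with Pearson r = 0.95, as a description. The points include the equal values, and all come from the same 4 arrays.

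Partner genes were examined as lists. Of 22 tested adaptors and signalling proteins of integrins, 10 were lower and 2 higher in both replicates, against 19.5% and 16.8% of all genes. In both replicates 0 passed 1.5-fold in either direction, against 1.15% and 1.47%. Fermt3, the kindlin of blood cells, read 5.73 and 5.78 on the mutant-labelled arrays, against 6.35 and 6.32 in WT. Its difference was -0.58. Fermt2, the kindlin of most other cells, differed by -0.01 in replicate 1 and held equal values in replicate 2, which do not show that it was level. Parvb, which links integrin-linked kinase to actin, differed by -0.50 and Zyx, a focal adhesion protein, by -0.33. Talin 1 (Tln1) was at 0.00, with equal values in replicate 2, and vinculin (Vcl) at -0.12, both named after their values were seen.

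The 12 catenins and junction partners had a median of 0.00, with 3 lower, 3 higher and 0 past 1.5-fold. Ctnnd2 at 0.27, Ctnna1 at -0.12 and Afdn at 0.18 had the smallest unadjusted p. Ctnnb1, which encodes beta-catenin, differed by 0.05 in replicate 1 and held equal values in replicate 2. Ligands of leukocyte integrins likewise had 0 of 8 past 1.5-fold, with F11r at -0.21, Icam1 at 0.18 and Jam2 at -0.19.

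Matrix ligands held larger differences. Of 21, 2 were at least 1.5-fold lower and 2 at least 1.5-fold higher in both replicates, around a median of 0.00. Over all genes these shares were 1.15% and 1.47%. Ibsp, bone sialoprotein, a ligand of the alpha v receptors, differed by -1.55. Laminin alpha chains went both ways beside the lower Itga6 and Itga3. Lama1 read 7.81 and 8.00 on the mutant-labelled arrays, against 8.63 and 8.65 in WT. Lama2 read 11.02 and 11.17 on the mutant-labelled arrays, against 10.29 and 10.37 in WT. Lama3 read 6.96 and 7.66 on the mutant-labelled arrays, against 5.49 and 6.60 in WT. Their log2 differences were -0.73, 0.76 and 1.27, none past an adjusted limma p of 0.05, and no group of arrays overlapped. Fn1, fibronectin, held equal values in both replicates.

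**Figure D4:**
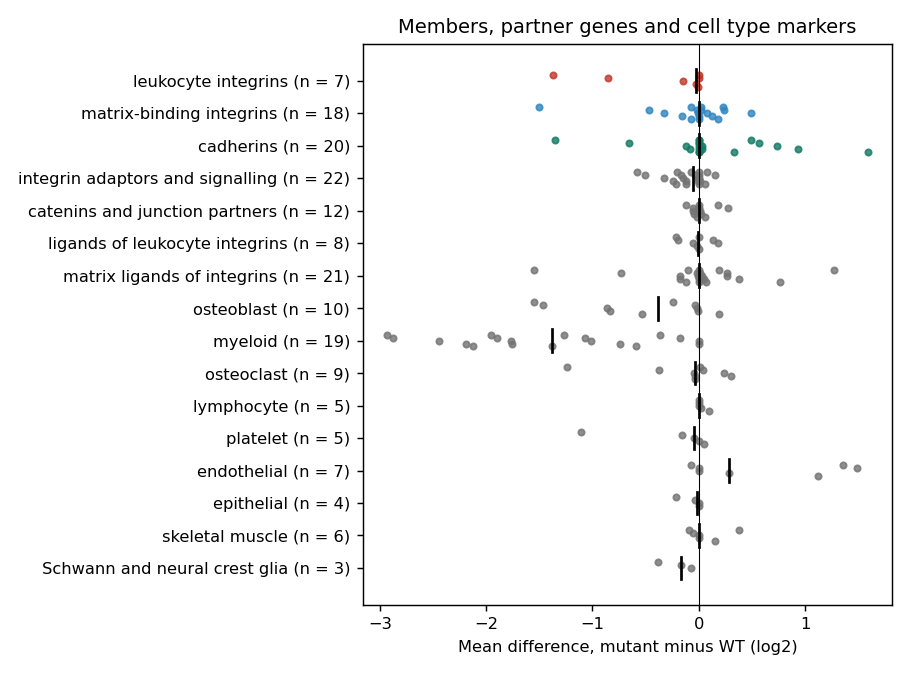
Mean log2 difference, mutant-labelled minus WT, of each tested gene (points) by list, with the median of the list as a bar; members are coloured and partner and marker lists grey. Leukocyte integrins, with a median of -0.02, hold 2 genes well below 0, and the myeloid markers have a median of -1.38; Itgad, Itgae and Itgax lie close to the floor, and Itgad and Itgb7 hold equal values.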

How the data were processed

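RNA of 4 cultures (2 mutant-labelled, 2 WT) was hybridised to Affymetrix Mouse Gene 2.0 ST arrays, which read a transcript with probes along its length. The deposited log2 values come from the authors. Partek and RMA appear in the submitters' processing notes with neither a version nor a role, and neither the log base, taken as 2, nor which arrays were normalized together is stated there. The values ran from 2.26 to 14.07. Mutant-labelled and WT arrays of a replicate number held equal values in 37.8% of 41345 rows for replicate 1 and 45.1% for replicate 2.

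Rows were named by the platform annotation: 23521 rows had 1 symbol, 1814 several and 16010 none listed. Genes above 4.71 (the 90th percentile over 1405 receptor rows of their mean level) on 2 or more of the 4 arrays were kept, which left 17841. They were fitted with limma 3.58.1 in R 4.3.3 (lmFit and eBayes, two-sided, group only, Benjamini-Hochberg over all genes tested), and the fit was tested on simulated data, where it recovered the sizes of planted changes but made no adjusted call without the replicate block. The 1.5-fold rule was applied within each replicate number. The number of arrays limits the precision.

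Members, lists and tests were chosen with earlier results of these data known. Values by array were given for members past 1.5-fold in both replicates or at unadjusted p under 0.05, for all leukocyte integrins, for the 6 integrins and 4 cadherins of highest level, and for Cdh18, Cdh13, Itga7, Fermt3 and 3 laminin genes, which were added after their values were seen. Of each partner list the 3 of smallest p were named, beside others named for their role. Alternatives covered the floor, quantile normalization again, the mean of all rows of a gene, the replicate block, an intensity trend, other fold thresholds and each array left out. Deviations of same-numbered arrays from the means of their groups correlated at r = 0.92 over the genes tested, which equal values raise, but 2 pairs and no label on litter or day leave the numbers without a stated pairing.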

Additional observations from a re-analysis of the deposited data

How the results depend on the processing

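The counts of 4 lower and 3 higher members past 1.5-fold in both replicates were the same without the floor, with a floor at the rows' median, after quantile normalization again and with the mean of all rows of a gene. At a lower fold threshold (0.32 on the log2 scale) they became 6 and 6, and at 2-fold 3 and 1. In replicate 1 alone, added after the data were seen, they were 4 and 4, and in replicate 2 alone 5 and 3. The 8 members at unadjusted limma p under 0.05 became 13 with the replicate block, 13 with an intensity trend, 13 when values were quantile-normalized again, and 5 with each of the 4 arrays left out in turn (5 to 5), where the lone array is assumed to vary like the other group. Genes past the adjusted threshold numbered 49 with the intensity trend, of which 0 were members, and 0 with the replicate block. The replicate block on values quantile-normalized again, chosen after the data were seen, put 17 members under an unadjusted p of 0.05 and called 335 genes, 5 of them members: Cdh1 (1.56, adjusted p = 0.0434), Cdh2 (0.50, 0.0475), Cdh6 (0.91, 0.0399), Itga11 (0.50, 0.0471) and Itga3 (-0.49, 0.0498). Equal values are broken apart there, and the cause of the added calls was not tested. With a floor at the rows' median, 3 leukocyte integrins were left and their median was -0.85, which is the value of Itgam itself. Leaving out an array puts the offset between replicates into the difference, and the median of all genes then ran from -0.16 to 0.15. That of matrix-binding integrins ran from -0.13 to 0.19, of cadherins from -0.26 to 0.39 and of leukocyte integrins from -0.30 to 0.04. The sign turned in 5 named members with small differences, over ranges of -0.2013 to 0.0417 for Cdh11, -0.0026 to 0.257 for Itga8, -0.3002 to 0.2886 for Itgae, -0.3435 to 0.0418 for Itgal and -0.0803 to 0.0314 for Itgax. The other 226 comparisons of named members kept their direction, or stayed at 0 in the main values, and their side of the adjusted threshold. Of the 8 members at unadjusted p under 0.05, Itga6 alone passed above it with the replicate block (0.0719). Dim rows limit Itgad, Itgae, Itgax, Cdh7 and Cdh20, which lie near the floor on most arrays.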
